A study of Mus musculus with 23 samples.

Results

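The 10 genes described here carry lipid between and within the cells of the brain, and they are 10 of the 55335 genes in the count table. The rule that picks them uses names and no threshold on a value, though earlier results of these data were known when the set was drawn up. They are the secreted carriers Apoe, Clu and Apod, the ATP-binding cassette (ABC) transporters Abca1, Abca7 and Abcg1, the receptors Lrp1 and Sorl1, the sterol hydroxylase Cyp46a1 and the intracellular carrier Fabp7. All 10 were expressed highly enough to be tested in every comparison. Bulk RNA sequencing of hippocampus was available for 23 female mice, 1 library for each animal number in the labels, from 3xTg mice, which model Alzheimer's disease (AD), and from wild-type (WT) mice of a control strain. The comparisons asked which genes differ in 3xTg mice and which respond to SCDi, an inhibitor of the desaturase that introduces a double bond into stearoyl-CoA and so yields monounsaturated fatty acids.

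WT mice carried the strain label C57BL/6J x 129S1, and 3xTg mice the label B6;129-Psen1tm1MpmTg(APPSwe,tauP301L)1Lfa/Mmjax. Every 3xTg group thus shared a mutant presenilin knock-in and human APP and tau transgenes under a neuron-specific element of Thy1. Untreated mice were taken at 8 months (WT-8M, n = 4, and 3xTg-8M, n = 4). The other mice were taken at 10 months, after 28 days of infusion into the lateral ventricle through an implanted pump. The pump held either vehicle with 0.8% DMSO (WT-D, n = 4, and 3xTg-D, n = 4) or SCDi at 80 µM in the same vehicle (WT-S, n = 3, and 3xTg-S, n = 4). Age, surgery and vehicle changed together between 8 and 10 months, so comparisons were made within an age. The titles of the 8-month samples also carry an L before the tissue code, which those of the infused mice lack. The titles do not say what it stands for.

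In brain, lipoprotein particles are built mainly by astrocytes: ABC transporters hand cholesterol and phospholipid to secreted apolipoproteins, and neurons and other cells take the particles up through receptors of the low-density lipoprotein receptor family. Cholesterol leaves the brain mostly after neurons hydroxylate it. Variants at the human genes for apolipoprotein E, clusterin, ABCA7 and SORLA, the product of Sorl1, are associated with the risk of AD.

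Gene counts per library ran from 12.8M to 36.69M for the untreated mice and from 12.99M to 17.58M for the infused ones. The labels held in the checks that were possible: Thy1, whose element drives the transgenes, was higher in 3xTg than in WT mice by 1.84 on the log2 scale at 8 months, by 1.52 under vehicle and by 1.42 under SCDi, with no overlap between the groups. All 10 neuron, 10 astrocyte and 10 oligodendrocyte markers had counts in every library. Of the libraries, 3 held more of 10 choroid plexus markers than the others, with a summed level of 381 CPM (counts of a gene per 1000000 counts of its library) in 3xTg-8M replicate 4, 374 CPM in WT-S replicate 2 and 254 CPM in 3xTg-S replicate 2, against 31.7 to 128 CPM elsewhere. The log2 levels of each library, minus each gene's mean over the 23 libraries, were also set against transcript length. In 3xTg-8M replicate 4 and 3xTg-S replicate 2 these relative levels fell by 0.41 and by 0.33 per 10-fold length. The slopes of the other 21 libraries lay between -0.13 and 0.17. In 3xTg-D replicate 3 the oligodendrocyte markers summed to the lowest level of its group (3732 CPM) and the blood markers to the lowest of all libraries (4.79 CPM). The blood markers were highest in 3xTg-S replicate 2 (209 CPM) and 3xTg-8M replicate 4 (98.7 CPM), and at most 67.3 CPM elsewhere. Results that rest on one of these 4 libraries are given with and without it, or with their range over alternative fits. Those fits include leaving out each library.

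The bases before the annotated start are shown for 4 members: Apod and Sorl1, the only members called in any comparison, Apoe, the most abundant, and Abca1, which had the most kinds of motif match. The sequences are those of RefSeq on GRCm38.p6, written 5′ to 3′ on the strand of the gene, 250 bases each, and RefSeq entries were matched for 8 of the 10 members, all except Clu and Abcg1. Capitals mark matches, on either strand, to the TATA box TATAAA, the GC box GGGCGG, the E-box CACGTG, the cAMP response element TGACGTCA, the nuclear receptor half-site AGGTCA and the liver X receptor element, a spaced direct repeat of 2 half-sites that can overlap the half-site itself.
Apoe, chr7:19699189-19699438, minus strand: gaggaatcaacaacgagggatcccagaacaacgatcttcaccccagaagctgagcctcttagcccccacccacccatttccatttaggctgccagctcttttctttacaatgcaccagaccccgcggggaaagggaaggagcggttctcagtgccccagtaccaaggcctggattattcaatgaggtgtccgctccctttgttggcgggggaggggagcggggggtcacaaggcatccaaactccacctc
Apod, chr16:31314809-31315058, minus strand: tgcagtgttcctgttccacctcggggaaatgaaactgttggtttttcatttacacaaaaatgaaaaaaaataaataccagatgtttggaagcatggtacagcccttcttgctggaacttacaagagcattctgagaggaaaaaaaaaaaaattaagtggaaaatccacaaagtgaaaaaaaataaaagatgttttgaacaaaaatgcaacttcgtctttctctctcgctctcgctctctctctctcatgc
Abca1, chr4:53159896-53160145, minus strand: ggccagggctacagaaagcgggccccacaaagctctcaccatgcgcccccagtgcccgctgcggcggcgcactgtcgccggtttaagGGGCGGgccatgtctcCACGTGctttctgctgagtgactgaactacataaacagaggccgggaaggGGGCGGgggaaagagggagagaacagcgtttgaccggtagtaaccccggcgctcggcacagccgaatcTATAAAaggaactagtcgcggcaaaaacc
Sorl1, chr9:42124298-42124547, minus strand: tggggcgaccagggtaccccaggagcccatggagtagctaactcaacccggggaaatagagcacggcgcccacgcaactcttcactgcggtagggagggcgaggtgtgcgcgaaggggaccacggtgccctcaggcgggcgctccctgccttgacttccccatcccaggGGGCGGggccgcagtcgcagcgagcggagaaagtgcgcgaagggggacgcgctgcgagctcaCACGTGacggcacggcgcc

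No match to these letters lay in the Apoe and Apod windows. The Apod window was also the poorest in G and C of the 8, at 36.4%, where Sorl1 had 69.6%. Sorl1 held 1 GC box, its first base 81 bases before the start, and 1 E-box at 19 bases. Abca1 held 2 GC boxes at 163 and 97 bases, 1 E-box at 147 bases and 1 TATA box at 29 bases. Its bases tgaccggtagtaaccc, read on the other strand, differ from the spaced repeat by 1 base and are unmarked. Among the 32851 promoter windows of the same length, 32.7% held the GC box, 12.4% the TATA box, 6.0% the E-box, 14% the half-site, 1.5% the cAMP response element and 0.1% the spaced repeat.

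Levels per length were compared between the members as CPM per kilobase of exon, averaged over all 23 libraries. The length was that of all annotated exons of a gene joined. It was 3287 bases for Cyp46a1 and 11321 for Sorl1, whose longest transcripts have 2118 and 10715 bases. The order of close neighbours can change with another choice of length. Apoe was highest at 666 ± 65.1 (SD over libraries, n = 23), followed by Clu at 259 ± 18.5, and both lay above the next gene in 23 of 23 libraries. Apod followed at 63.1 ± 26.6, then Sorl1 at 39.5 ± 4.45 and Cyp46a1 at 29.3 ± 2.12. Apod lay above Sorl1 in 18 of 23 libraries, Sorl1 above Cyp46a1 in 22, and Cyp46a1 above Fabp7 in 18. Fabp7 at 22.8 ± 4.68 and Lrp1 at 21.6 ± 2.05 could not be ordered at these lengths, since Fabp7 was the higher in 11 of 23 libraries. Abcg1 at 11.1 ± 0.71, Abca1 at 5.03 ± 0.60 and Abca7 at 2.11 ± 0.47 followed, each below the gene before it in 23 of 23 libraries. The lowest raw count of any member in any library was 139, for Abca7. Apod varied most, with its highest library 4.82 times its lowest, and Abcg1 least, at 1.27 times.

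**Figure D1:**
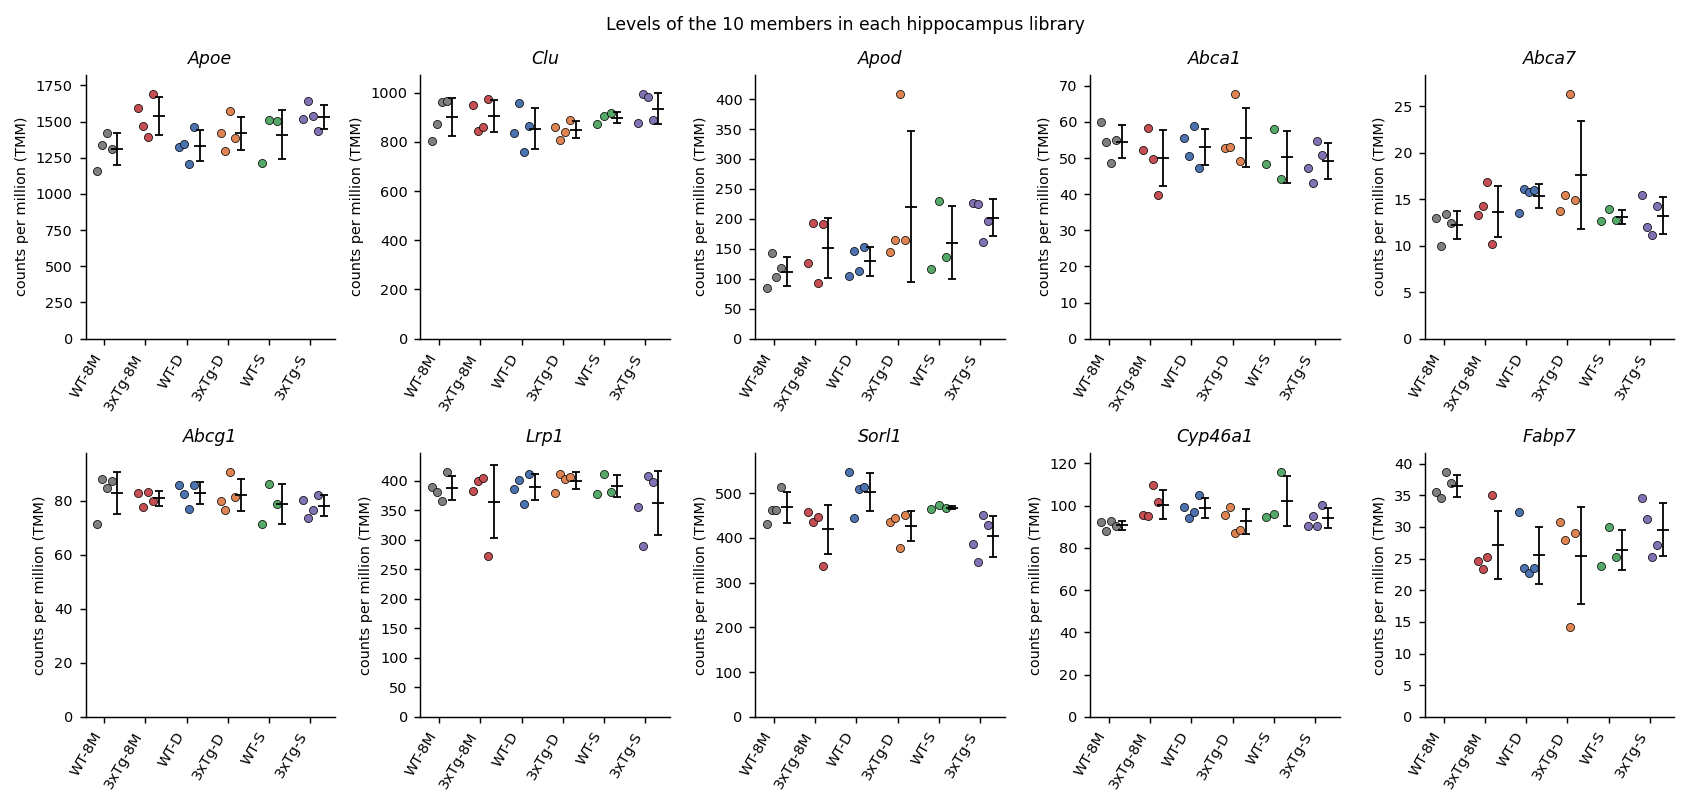
Level of each member in CPM (scaled by TMM, vertical axes from 0) in every library of the 6 groups, with 1 point a library and the group mean and SD beside the points. Sorl1 lay lower in 3xTg than in WT mice within each age and treatment on average, and single libraries such as 3xTg-D replicate 3 for Apod (408 CPM) stand apart from their groups.

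Differences between 3xTg and WT mice were small for these genes. Among the 3 comparisons of strain, which share no library, edgeR's quasi-likelihood test with Benjamini-Hochberg adjustment over all genes called 0 of the 10 members at 8 months, 0 under vehicle and 0 under SCDi, where it called 2.58%, 1.39% and 1.32% of all genes tested. At an unadjusted p under 0.05 the members numbered 3 at 8 months, 2 under vehicle and 1 under SCDi, beside 17.4%, 13.1% and 10.6% of all genes. The median absolute log2 fold change over the members was 0.15 at 8 months, 0.07 under vehicle and 0.11 under SCDi, and over all genes it was 0.12, 0.09 and 0.09. Over the 15 libraries of 10 months together, with treatment as a term, 1 of 10 members was called, Sorl1, and 6.53% of all genes, and 3 members (Apod, Sorl1 and Cyp46a1) and 19.7% of all genes had an unadjusted p under 0.05. Of the 10 members, 5 had the same direction in all 3 separate comparisons (Apoe, Apod and Abca7 with positive estimates, Sorl1 and Abcg1 with negative ones), as had 40.3% of all genes, and the estimate of Abca7 under vehicle changed sign without 3xTg-D replicate 3.

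**Figure D2:**
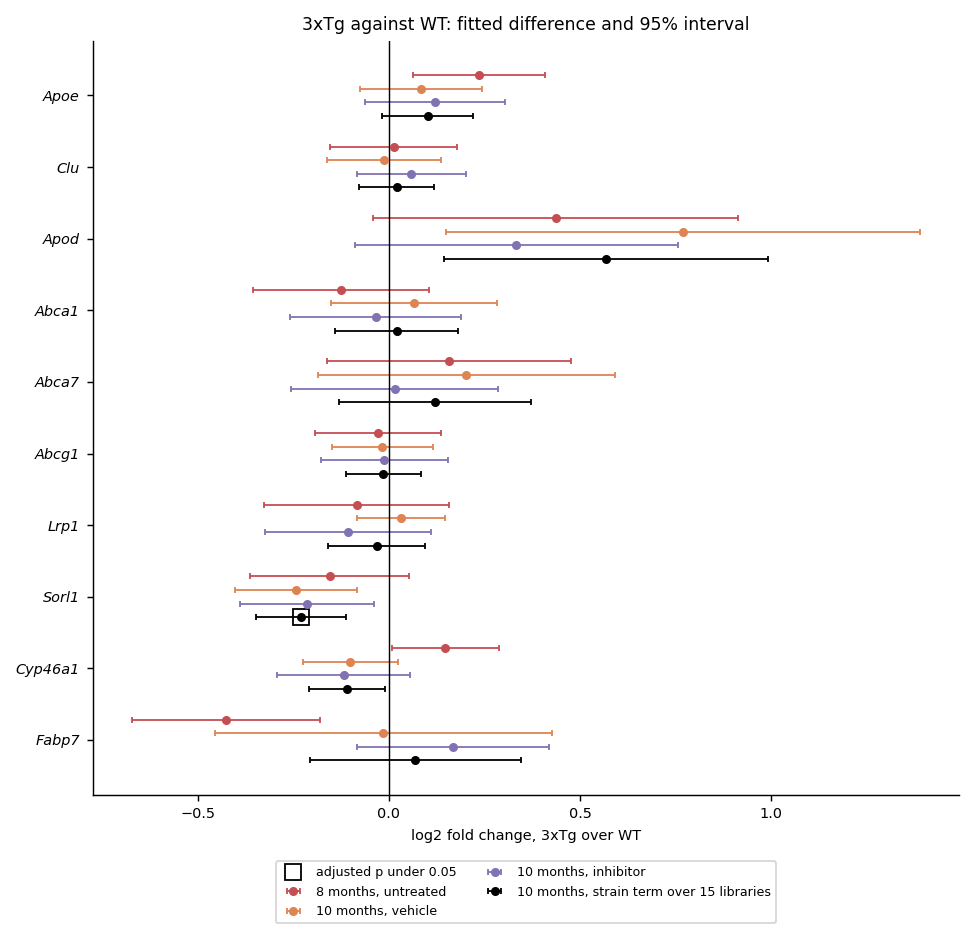
Fitted log2 fold change of 3xTg over WT for each member, with its 95% interval, at 8 months (red), under vehicle (orange), under SCDi (purple) and as 1 strain term over the 15 libraries of 10 months (black). Only the Sorl1 term (-0.23) carries the square of an adjusted p under 0.05, and its estimates lie left of 0 in all 4 fits.

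Sorl1 encodes the sorting receptor SORLA, which binds the amyloid precursor protein and lipoproteins and directs cargo between endosomes and the Golgi. The gene lies at chr9:41964720-42124297 on the minus strand of GRCm38, and its longest transcript has 10715 bases. It was lower in 3xTg mice at 10 months. Under vehicle the WT libraries held 546, 445, 509 and 513 CPM, a mean of 503 ± 42.3 (SD, n = 4). The 3xTg libraries held 436, 444, 376 and 450.5 CPM, a mean of 427 ± 34.2 (SD, n = 4). WT-D replicate 2 was the one WT library within the 3xTg range, so the groups overlapped by that library.

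Under SCDi, WT mice had 465, 473 and 466 CPM of Sorl1 and 3xTg mice 386.6, 347, 451 and 429 CPM. These groups did not overlap, which also held for 10.8% of all genes in that comparison, while under vehicle 0 of 10 members and 7.79% of all genes did not overlap. The log2 fold change was -0.24 ± 0.07 (SE) under vehicle (adjusted p = 0.154) and -0.21 ± 0.08 under SCDi (adjusted p = 0.328). Over 14 alternatives the latter ran from -0.27 to -0.15, and it was called in 0 of them. With both treatments in one fit, the strain difference was -0.23 ± 0.06, 0.853 of the WT level, with a 95% interval from -0.35 to -0.11 and an adjusted p of 0.0172 by edgeR's quasi-likelihood test. It was called in all 23 alternatives of that fit, with adjusted p between 0.000332 and 0.0394. Without both 3xTg-D replicate 3 and 3xTg-S replicate 2 it was -0.17 (adjusted p = 0.0338).

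At 8 months WT mice had 432, 463, 463 and 514 CPM of Sorl1, and 3xTg mice 457, 435, 447 and 338 CPM. The 3xTg values lay inside or below the WT range, and the lowest was that of 3xTg-8M replicate 4. The difference there was -0.16 ± 0.10 (adjusted p = 0.425), and -0.07 without that library. The strain difference was not shown to differ between 8 and 10 months (interaction -0.09, 95% interval -0.36 to 0.19, adjusted p = 0.841). Between 3xTg mice with SCDi and WT mice with vehicle, Sorl1 differed by -0.32 ± 0.08 (adjusted p = 0.0723), and it was called in 6 of 15 alternatives. These were without WT-D replicate 2 (-0.37, adjusted p = 0.0434), without 3xTg-S replicate 3 (-0.38, adjusted p = 0.0412), with the block for runs of 4 animal numbers (-0.32, adjusted p = 0.0329), with the DESeq2 likelihood ratio test (adjusted p = 0.0121), with no filter (adjusted p = 0.000252) and with all 15 libraries of 10 months in one fit (adjusted p = 0.0376). With no filter 1135 genes were called there, against 356 with the filter.

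Summed markers of neurons, oligodendrocytes and microglia separated the strains without overlap in at least 1 of the 3 comparisons of strain. The summed level of 10 neuron markers was 10399 to 11392 CPM in 3xTg-8M against 11442 to 12270 CPM in WT-8M mice, with no overlap. It was 10722 to 11721 CPM in 3xTg-D against 11653 to 12151 CPM in WT-D mice, and 9995 to 11629 CPM in 3xTg-S against 11005 to 12461 CPM in WT-S mice. The 10 oligodendrocyte markers summed to 5965 to 6777 CPM in 3xTg-S and 4006 to 5099 CPM in WT-S mice, without overlap, and they overlapped between the strains in the other 2 comparisons. The 10 microglia markers summed to 448 to 551 CPM in 3xTg-8M against 379 to 447 CPM in WT-8M mice and to 491 to 609 CPM in 3xTg-S against 410 to 436 CPM in WT-S mice, both without overlap, and they overlapped under vehicle. The part of these markers in the Sorl1 result was not tested, and in whole tissue fewer cells of a type and less RNA per cell cannot be told apart. An antisense gene, Gm16214, shares exonic bases with Sorl1, and whether counting used strand is not given in the sources used here, so the value of Sorl1 is uncertain by the reads of that gene. Gm16214 itself had at most 7 counts in a library.

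Lrp1, at chr10:127538161-127621148 on the minus strand, encodes a large endocytic receptor for apolipoprotein E and many other ligands, with a longest transcript of 14888 bases. Its level in WT mice was 366 to 414 CPM at 8 months, 361 to 412 CPM under vehicle and 378 to 412 CPM under SCDi. At 8 months the 3xTg libraries held 382.8, 399, 405 and 272 CPM, and under SCDi 356, 289, 408 and 397.3 CPM. The lowest value of each set came from a library whose relative levels fell with transcript length, 3xTg-8M replicate 4 and 3xTg-S replicate 2. Strain differences were -0.08 ± 0.11 at 8 months, 0.03 ± 0.05 under vehicle and -0.11 ± 0.10 under SCDi, none of them called, and the first was 0.03 without 3xTg-8M replicate 4. The difference under SCDi ran from -0.17 to -0.01 over 14 alternatives, which include leaving out 3xTg-S replicate 2. Over the 15 libraries of 10 months the 95% interval of the Lrp1 strain difference ran from -0.16 to 0.09.

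Apod, at chr16:31296192-31314808 on the minus strand, encodes apolipoprotein D, a small secreted lipocalin that binds arachidonic acid and other lipids and is made in brain by oligodendrocytes, astrocytes and cells of the vessel wall. Its estimates were the largest of the members and the most variable. At 8 months WT mice had 84.7, 142, 102 and 118 CPM and 3xTg mice 127, 194, 92.7 and 191 CPM. Under vehicle WT mice had 105, 146, 112 and 153 CPM and 3xTg mice 144, 165, 408 and 164 CPM. Under SCDi WT mice had 116, 229 and 136 CPM and 3xTg mice 227, 225, 161 and 196 CPM. Groups of the 2 strains overlapped in each of these, and the highest value in any library was that of 3xTg-D replicate 3.

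The log2 fold change of Apod between strains was 0.44 ± 0.22 at 8 months (adjusted p = 0.328), 0.77 ± 0.28 under vehicle (adjusted p = 0.266) and 0.33 ± 0.19 under SCDi (adjusted p = 0.613). Without 3xTg-D replicate 3 the difference under vehicle was 0.30 (adjusted p = 0.355). Without WT-S replicate 2, which had the highest Apod of its group and a summed choroid plexus level of 374 CPM, the difference under SCDi was 0.68 and was called (adjusted p = 0.0384). Over all 15 libraries of 10 months it was 0.57 ± 0.20 (adjusted p = 0.111), 0.31 without 3xTg-D replicate 3 (adjusted p = 0.183) and 0.73 without WT-S replicate 2 (adjusted p = 0.0295). The direction was positive in each of these fits. With every library kept, Apod was also called with no filter on low counts under vehicle (adjusted p = 0.000366), under SCDi (adjusted p = 0.00245) and over 10 months (adjusted p = 3.9e-05), and with all 23 libraries in one fit (0.52, adjusted p = 0.0384), an alternative chosen after seeing the data. With no filter 792 genes were called under vehicle and 729 under SCDi, against 216 and 206 with the filter. With all 23 libraries 1851 genes were called, against 1062 in the fit of 15.

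Apod was called in 1 comparison of pairs, 3xTg mice with SCDi against WT mice with vehicle, in which 1 of 10 members and 2.29% of all genes were called. All 4 libraries of 3xTg-S, 161 to 227 CPM, lay above all 4 of WT-D, 105 to 153 CPM, a lack of overlap that 10.4% of all genes shared. The difference was 0.65 ± 0.13 (SE), 1.57-fold, with a 95% interval from 0.37 to 0.93 and an adjusted p of 0.0202 by edgeR's quasi-likelihood test. The call was lost without WT-D replicate 3 (0.58, adjusted p = 0.0584), without 3xTg-S replicate 1 (0.59, adjusted p = 0.0783), without 3xTg-S replicate 2 (0.60, adjusted p = 0.0586) and with all 15 libraries of 10 months in one fit (0.65, adjusted p = 0.231). This comparison shares its libraries with those of each strain and treatment and is not separate evidence. The oligodendrocyte markers summed to 5965 to 6777 CPM in 3xTg-S and to 4289 to 5477 CPM in WT-D mice, also without overlap. The same held for the neuron markers (9995 to 11629 against 11653 to 12151 CPM), the microglia markers (491 to 609 against 386.1 to 448 CPM) and the markers of activated microglia (264 to 300 against 220 to 246 CPM). The endothelial (205 to 238 against 181 to 231 CPM) and choroid plexus markers (36.1 to 254 against 36.1 to 45.3 CPM) overlapped. Within the groups, Pearson's r of Apod over 23 libraries was 0.57 with choroid plexus and 0.55 with endothelial markers. It was 0.24 with activated microglia, -0.09 with oligodendrocyte, -0.36 with microglia and -0.41 with neuron markers. Without 3xTg-D replicate 3 these values were 0.60, 0.74, 0.52, 0.38, 0.08 and -0.34 in that order. The part of these marker lists in the Apod result was not tested. In 3xTg-D replicate 3, in which Apod was highest, the oligodendrocyte markers summed to 3732 CPM, below the other libraries of its group. The markers of neurons (10722 CPM), microglia (399 CPM) and activated microglia (236 CPM) were also lowest of the group in that library.

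Apoe, at chr7:19696109-19699188 on the minus strand, encodes the main apolipoprotein of brain lipoprotein particles, secreted largely by astrocytes and raised in activated microglia. Its strain difference was not called within any of the 3 ages and treatments, and its estimate was largest at 8 months. WT mice had 1157, 1339, 1424 and 1314 CPM, and 3xTg mice 1595, 1470.5, 1395 and 1690.1 CPM. WT-8M replicate 3 lay above the lowest 3xTg library, and the other 3 WT libraries lay below all 3xTg libraries. The log2 fold change was 0.24 ± 0.08 (unadjusted p = 0.0122, adjusted p = 0.161), or 1.18-fold. With a trend on transcript length and GC content removed it was 0.12 (adjusted p = 0.252).

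At 10 months Apoe ranged from 1205 to 1466 CPM in WT-D and from 1298 to 1570.4 CPM in 3xTg-D mice, and from 1215 to 1513 CPM in WT-S and from 1438 to 1639.8 CPM in 3xTg-S mice. Both pairs of ranges overlapped. The strain difference was 0.08 ± 0.07 under vehicle (adjusted p = 0.694) and 0.12 ± 0.08 under SCDi (adjusted p = 0.687). Over 10 months it was 0.10, with a 95% interval from -0.02 to 0.22. With all 23 libraries in one fit, an alternative chosen after seeing the data, it was 0.15 and was called (adjusted p = 0.0460). That fit called 1851 of all genes, against 1062 with the libraries of 10 months. The microglia markers given with Sorl1 separated the strains at 8 months and under SCDi. The 10 markers of activated microglia overlapped between the strains in all 3 comparisons. At 8 months they summed to 216 to 280 CPM in 3xTg and 206 to 248 CPM in WT mice. The 10 astrocyte markers also overlapped in all 3 (at 8 months 5373 to 6413 CPM in 3xTg and 5797 to 6193 CPM in WT mice). The part of these markers in the Apoe values was not tested.

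Clu, at chr14:65968483-65981547 on the plus strand, encodes clusterin, or apolipoprotein J, a secreted chaperone that travels on brain lipoproteins and binds amyloid. It was the steadiest of the secreted carriers between strains. Its levels spanned 758 to 994 CPM over all libraries. Strain differences were 0.01 ± 0.08 at 8 months, -0.01 ± 0.07 under vehicle and 0.06 ± 0.07 under SCDi, and over 10 months the 95% interval was -0.08 to 0.12.

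Among the transporters, Abca1 exports cholesterol and phospholipid to apolipoproteins, Abcg1 exports cholesterol to particles that already hold lipid, and Abca7 moves phospholipid and is involved in phagocytosis. Abca1 lies at chr4:53030787-53159895 on the minus strand, Abca7 at chr10:79996494-80015572 and Abcg1 at chr17:31057675-31117988, both on the plus strand. No transporter was called in a comparison of strains. Abcg1 lay between 71.4 and 90.5 CPM in all 23 libraries, and its strain difference over 10 months was -0.01, with a 95% interval from -0.11 to 0.08. Abca1 lay between 39.9 and 67.7 CPM, and its strain difference was -0.13 ± 0.11 at 8 months, 0.07 ± 0.10 under vehicle and -0.03 ± 0.10 under SCDi. The first ran from -0.21 to -0.03 over 12 alternatives.

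Abca7 was the least abundant member, and 1 library decided the sign of its strain difference under vehicle. Under vehicle WT mice had 13.5, 16.1, 15.7 and 16.0 CPM and 3xTg mice 13.7, 15.4, 26.3 and 14.9 CPM. Apart from the 26.3 CPM of 3xTg-D replicate 3, the 3xTg values lay within the WT range. The strain difference was 0.20 ± 0.18 with that library and -0.05 without it. At 8 months it was 0.16 ± 0.15 (WT 9.99 to 13.4 CPM, 3xTg 10.2 to 16.8 CPM), and under SCDi 0.01 ± 0.12 (WT 12.6 to 14 CPM, 3xTg 11.2 to 15.5 CPM).

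Cyp46a1, at chr12:108334381-108362234 on the plus strand, encodes cholesterol 24-hydroxylase, the neuronal enzyme that makes the form of cholesterol which leaves the brain. At 8 months WT mice had 92.0, 87.8, 92.8 and 90.3 CPM and 3xTg mice 95.5, 94.9, 109.7 and 102 CPM. It was the 1 member of 10 whose groups did not overlap at 8 months, beside 11.3% of all genes. The difference was 0.15 ± 0.06 (unadjusted p = 0.0393, adjusted p = 0.264), and 0.05 with the length and GC trend removed (adjusted p = 0.756). Under vehicle the sign was the other, with 99.1, 94.2, 97.1 and 105 CPM in WT and 95.6, 99.4, 86.9 and 88.4 CPM in 3xTg mice, a difference of -0.10 ± 0.06 (adjusted p = 0.502). The change of the strain difference between the cohorts was -0.25 ± 0.08 (95% interval -0.42 to -0.07, unadjusted p = 0.00801), the smallest p of the members for that interaction. It did not pass adjustment (adjusted p = 0.451), and 9.57% of all genes had an unadjusted p under 0.05 there. Over the 15 libraries of 10 months the strain difference was -0.11 ± 0.05 (adjusted p = 0.205).

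Fabp7, at chr10:57784881-57788450 on the plus strand, encodes the brain fatty acid-binding protein of astrocytes and neural progenitors, which carries long-chain fatty acids, docosahexaenoic acid among them. Its level at 8 months lay below every WT library in 3 of 4 3xTg libraries, though the difference was not called by edgeR's quasi-likelihood test with all libraries and its filter on low counts. WT mice had 35.5, 34.6, 38.6 and 36.9 CPM, and 3xTg mice 24.6, 23.4, 25.3 and 35.0 CPM. The 35.0 CPM of 3xTg-8M replicate 4 lay within the WT range, and the other 3 lay well below it. The log2 fold change was -0.43 ± 0.11 (95% interval -0.67 to -0.18), or 0.745 of the WT level, with an unadjusted p of 0.00283 and an adjusted p of 0.0757 by edgeR's quasi-likelihood test. Without 3xTg-8M replicate 4 it was -0.57 and was called (adjusted p = 0.00110), as it was with every library under 3 alternatives: the length and GC trend removed (-0.41, adjusted p = 0.00832), no filter on low counts (-0.43, adjusted p = 0.00429) and the DESeq2 likelihood ratio test (-0.43, adjusted p = 0.0151). With no filter 854 genes were called at 8 months, against 399 with the filter.

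At 10 months the Fabp7 levels of the strains lay closer together. Under vehicle WT mice had 32.3, 23.5, 22.7 and 23.5 CPM and 3xTg mice 30.7, 27.9, 14.1 and 29.1 CPM. Under SCDi WT mice had 23.9, 29.9 and 25.3 CPM and 3xTg mice 34.6, 31.2, 25.2 and 27.2 CPM. Groups overlapped in both. The WT mean was 36.4 ± 1.76 CPM (SD, n = 4) at 8 months and 25.5 ± 4.55 CPM (SD, n = 4) under vehicle, between which age, surgery and vehicle cannot be told apart. The strain difference was -0.01 ± 0.20 under vehicle, 0.20 without 3xTg-D replicate 3, and 0.17 ± 0.11 under SCDi. Between the 8-month and vehicle cohorts the strain difference changed by 0.41, with a 95% interval from -0.12 to 0.95 (adjusted p = 0.609), so it was not shown to differ.

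SCDi changed no member past the threshold. The test called 0 of 10 members in 3xTg-S against 3xTg-D and 0 of 10 in WT-S against WT-D, where it called 0 of all genes (0.0%) in each. At an unadjusted p under 0.05 it found 2 members in 3xTg mice, Clu and Abca7, and 1 in WT mice, Abca7, beside 11.2% and 3.42% of all genes. With strain as a term over the 15 libraries, 0 of 10 members and 0.0% of all genes were called, and 2 members, again Clu and Abca7, had an unadjusted p under 0.05, beside 13.6% of all genes. The vehicle and SCDi libraries of each strain are shared by these comparisons, so they are read side by side only.

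**Figure D3:**
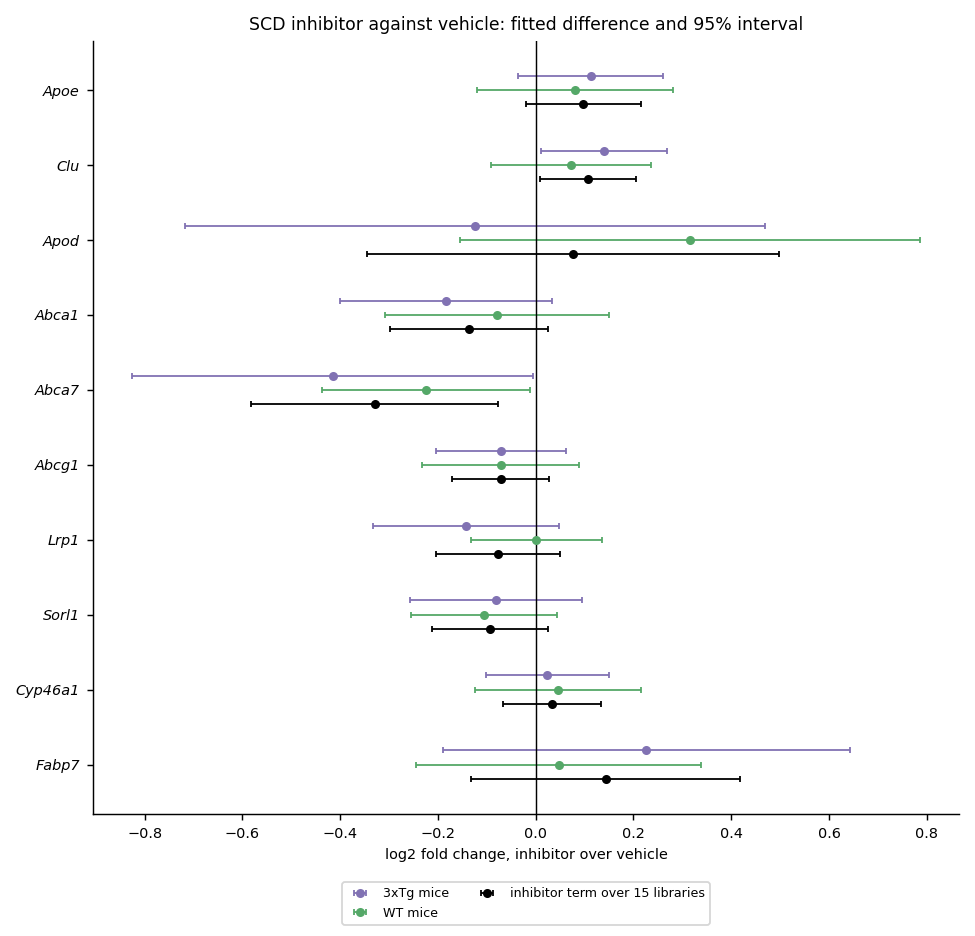
Fitted log2 fold change of SCDi over vehicle for each member, with its 95% interval, in 3xTg mice (purple), in WT mice (green) and as 1 treatment term over the 15 libraries of 10 months (black). The Abca7 estimates, -0.42, -0.22 and -0.33, lie farthest below 0, and no estimate has an adjusted p under 0.05.

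Abca7 had a negative estimate with SCDi in both strains, short of the threshold. In 3xTg mice the 4 vehicle libraries held 13.7, 15.4, 26.3 and 14.9 CPM and the 4 SCDi libraries 15.5, 12, 11.2 and 14.3 CPM. In WT mice the vehicle libraries held 13.5, 16.1, 15.7 and 16.0 CPM and the SCDi libraries 12.6, 14 and 12.7 CPM. Groups overlapped in both strains, as they did for all 10 members, while 7.03% of all genes in 3xTg mice and 4.88% in WT mice did not overlap. The log2 fold change was -0.42 ± 0.19 in 3xTg mice (adjusted p = 0.446) and -0.22 ± 0.10 in WT mice (adjusted p = 0.981). Without 3xTg-D replicate 3 the former was -0.15 (adjusted p = 0.688), and the term over both strains moved from -0.33 ± 0.12 (adjusted p = 0.263) to -0.19 (adjusted p = 0.349).

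Clu differed between SCDi and vehicle in 3xTg mice by 0.14 ± 0.06 (adjusted p = 0.427), with 861, 807, 841 and 890.5 CPM under vehicle and 875, 994, 983 and 888 CPM under SCDi. The groups overlapped by the highest vehicle library. In WT mice its difference was 0.07 ± 0.07, with 838, 956, 758 and 864 CPM under vehicle and 873, 905 and 915 CPM under SCDi. Over both strains it was 0.11 ± 0.05 (adjusted p = 0.326), and 0.03 with the length and GC trend removed (adjusted p = 0.906). Apoe, at 0.10 ± 0.06 over both strains, was -0.01 with that trend removed. The other members had treatment terms between -0.14 and 0.14, and the 95% interval of Cyp46a1 (-0.07 to 0.13) was among the narrowest.

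The response to SCDi was not shown to differ between the strains for any member. The interaction of strain and treatment called 0 of 10 members and 0.0% of all genes, and 0 members had an unadjusted p under 0.05, beside 2.32% of all genes. The smallest unadjusted p was 0.260, for Lrp1 (-0.14, 95% interval -0.39 to 0.11). Over 22 alternatives that estimate ran from -0.22 to -0.04. Apod had the widest interval, from -1.29 to 0.41 around -0.44, and its estimate was 0.04 without 3xTg-D replicate 3. The interaction of strain and cohort likewise called 0 members, and 0.0621% of all genes.

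Other genes of lipid transport were read from 6 lists with 106 genes, 77 of which were expressed highly enough to be tested: 1 of 15 other apolipoproteins, 15 of 17 ABC transporters, 22 of 23 lipoprotein and sorting receptors, 21 of 29 intracellular carriers, 8 of 11 genes of lipoprotein remodelling and sterol storage, and 10 of 11 genes of oxysterol synthesis and the liver X receptor. At 8 months edgeR's quasi-likelihood test called 1 of the 77 higher and 1 lower in 3xTg mice (2.6% against 2.58% of all genes). Under vehicle it called 2 higher and 1 lower (3.9% against 1.39%), and under SCDi 0 (0.0% against 1.32%). List genes with an unadjusted p under 0.05 numbered 11 at 8 months (14.3% against 17.4% of all genes). They numbered 13 under vehicle (16.9% against 13.1%) and 12 under SCDi (15.6% against 10.6%). Over the 15 libraries of 10 months 2 were called higher and 3 lower, 6.49% against 6.53% of all genes, so the share of lipid transport genes called in that fit was close to the background. Between SCDi and vehicle the test called 0 list genes in either strain or over both. At an unadjusted p under 0.05 there were 9 in 3xTg mice (11.7% against 11.2% of all genes), 2 in WT mice (2.6% against 3.42%) and 14 over both (18.2% against 13.6%). The 1 apolipoprotein tested was Apoc1, at 0.495 to 2.70 CPM, and it was called in no comparison.

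Over 10 months Scarb2, a lysosomal membrane receptor, was higher in 3xTg mice by 0.22 ± 0.04 (adjusted p = 0.000608), and Abca9, an ABC transporter of the same class as Abca1, by 0.54 ± 0.10 (adjusted p = 0.00253). Lcat, which esterifies cholesterol on lipoproteins, was lower by -0.36 ± 0.07 (adjusted p = 0.00229), and Dbi, the acyl-CoA-binding protein, by -0.33 ± 0.06 (adjusted p = 0.000973). Scarb2 ranged from 173 to 196 CPM in WT-D and from 209 to 227 CPM in 3xTg-D mice, and Dbi from 119 to 144 CPM and from 95.1 to 110.0 CPM. Neither gene overlapped between these groups. These 4 genes were called in all 23 alternatives of that fit. Reads of Dbi may be split with processed copies in the genome, so its value is uncertain. Sorcs2, a sorting receptor related to Sorl1, was lower by -0.19 ± 0.06 (adjusted p = 0.0497) and was called in 7 of 23 alternatives.

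At 8 months Lipg, which encodes endothelial lipase, was higher in 3xTg mice by 0.91 ± 0.21 (adjusted p = 0.0413), and under vehicle by 0.96 ± 0.21 (adjusted p = 0.0445). Its levels were low, 1.13 to 1.5 CPM in WT-8M and 1.93 to 3.10 CPM in 3xTg-8M mice, and the calls held in 4 of 12 and 5 of 16 alternatives. Abca6, another transporter of the Abca1 class, was lower at 8 months by -0.70 ± 0.15 (adjusted p = 0.0372, called in 4 of 12 alternatives), with 3.88 to 5.63 CPM in WT and 2.76 to 3.37 CPM in 3xTg mice. The list of oxysterol enzymes and the liver X receptor, the nuclear receptor that oxysterols activate, had 0 of 10 genes called in every comparison by edgeR's quasi-likelihood test. Its median log2 fold change was 0.01 for strain and 0.11 for SCDi over 10 months, where all genes had medians of 0.00, and 2 of its 10 treatment terms had an unadjusted p under 0.05, beside 13.6% of all genes. The medians of the other 5 lists for SCDi over 10 months ran from -0.07 to 0.00.

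Within the groups the members did not vary as one set. Correlations are Pearson's r of log2 CPM centred on each group's mean over 23 libraries, given as a description, since libraries share depth, dissection and length effects. Apoe went with Clu (r = 0.65, Spearman's rho = 0.66), with Apod (r = 0.62, rho = 0.64) and with Abcg1 (r = 0.60, rho = 0.52). With the 2 libraries of most extreme Apoe left out, these were 0.61, 0.57 and 0.41. Lrp1 and Sorl1 went together at r = 0.74 (rho = 0.68), and at 0.45 without the 2 libraries of lowest Lrp1, 3xTg-8M replicate 4 and 3xTg-S replicate 2. Abca7 and Fabp7 ran against each other at r = -0.65 (rho = -0.37), and at -0.27 without 3xTg-8M replicate 4 and 3xTg-D replicate 3. Without 3xTg-D replicate 3 alone r was -0.26, so that relation rested largely on that library.

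**Figure D4:**
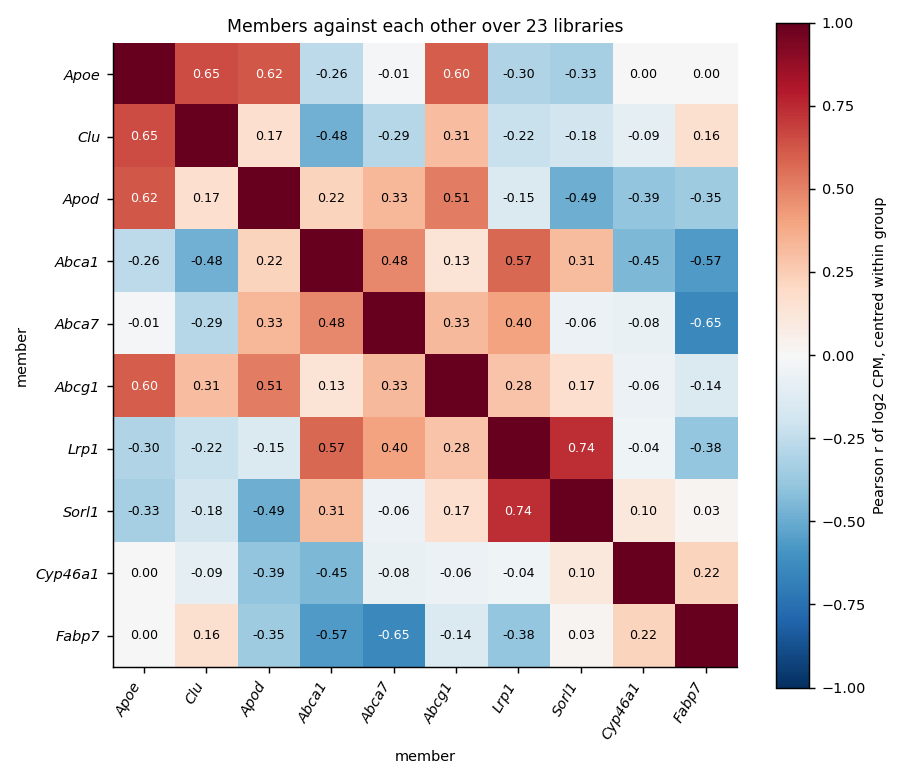
Pearson's r between each pair of members over 23 libraries, from log2 CPM centred on each group's mean, with blue below 0 and red above 0. The highest value is that of Lrp1 with Sorl1 (0.74) and the lowest that of Abca7 with Fabp7 (-0.65).

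The tilt of a library towards long or short transcripts went with several members. The slope on transcript length of log2 level minus each gene's mean over the 23 libraries was centred in the same way. It correlated with Lrp1 at r = 0.85 (rho = 0.60), with Abca1 at 0.73 (rho = 0.73) and with Sorl1 at 0.59 (rho = 0.33). These 3 members have the longest transcripts of the 10, from 10262 to 14888 bases. Apoe and Clu, with 1408 and 1810 bases, correlated at -0.61 (rho = -0.63) and -0.62 (rho = -0.71). Other members with short transcripts went less closely with it. Fabp7, the shortest at 880 bases, correlated at -0.42 (rho = -0.52), Apod (2074 bases) at -0.25 and Cyp46a1 (2118 bases) at -0.12. Without 3xTg-8M replicate 4 and 3xTg-S replicate 2 the values were 0.57 for Lrp1, 0.62 for Abca1, 0.12 for Sorl1, -0.58 for Apoe and -0.60 for Clu. The r of Sorl1 thus rested largely on those 2 libraries, and it was 0.67 without 3xTg-D replicate 3 alone. One of the 2, 3xTg-S replicate 2, is among the libraries of 10 months. The Sorl1 strain difference over 10 months was -0.21 with the length and GC trend removed (adjusted p = 0.01). The 2 tilted libraries were also among the 3 with most choroid plexus markers (381 and 254 CPM). Centred in the same way, Sorl1 went with astrocyte (r = 0.70), neuron (0.63) and choroid plexus markers (-0.60). In the same order r was 0.71, 0.52 and -0.61 for Lrp1, and 0.43, 0.19 and -0.11 for Abca1. The part of the length tilt or of these markers in the Sorl1 strain difference was not tested.

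**Figure D5:**
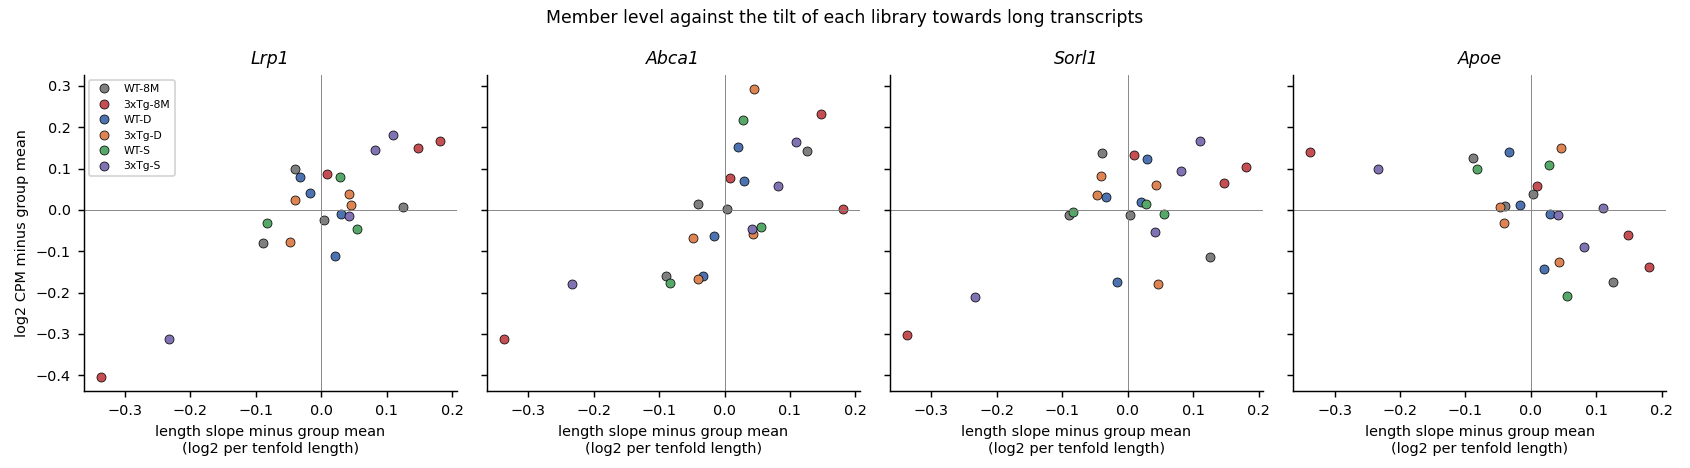
Level of Lrp1, Abca1, Sorl1 and Apoe (log2 CPM minus the group mean) against the length slope of the same library (minus the group mean). The length slope is that of log2 level, minus each gene's mean over the 23 libraries, on log10 transcript length. Each of the 23 libraries is 1 point, with colours for the 6 groups. The 2 points at the far left are 3xTg-8M replicate 4 and 3xTg-S replicate 2, low for Lrp1, Abca1 and Sorl1 and above the group mean for Apoe.

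The genes whose pattern was most like that of a member were ranked by the same centred r among the 11650 genes that averaged 5 CPM or more. Lrp1 was followed most closely by Ubr4 (r = 0.96), Prr14l (0.96) and Map1a (0.96), all of long transcripts (9959 to 15928 bases). For Sorl1 these were Sipa1l1 (0.91), Atp2b2 (0.90) and Epha6 (0.89), for Abca1 Zc3h12c (0.88), Mga (0.84) and Csrnp3 (0.83), and for Abca7 Tarbp1 (0.79), St3gal1 (0.78) and Umps (0.76). Apoe was most like Usf2 (0.88), Syf2 (0.86) and Tmem98 (0.84), and Clu most like Tsc22d4 (0.91), Ctsd (0.84) and Bcl2l1 (0.84). Abcg1 was most like Fbxo31 (0.80), Gab1 (0.79) and Scd2 (0.76), the last a desaturase gene. Cyp46a1 was most like Atat1 (0.78), Inha (0.76) and Mlip (0.74). The nearest genes of Apod were Atp6v0e (0.85), Sult1a1 (0.82) and Car14 (0.81), and those of Fabp7 were Phf13 (0.89), Serpinb1a (0.89) and Pllp (0.88). Without 3xTg-D replicate 3 these values were 0.67 to 0.72 for Apod, 0.70 to 0.76 for Fabp7 and 0.63 to 0.69 for Abca7, so these 3 orders rested in part on that library.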

How the data were processed

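Hippocampal poly(A) RNA of 23 mice was sequenced, and the authors trimmed reads with Trimmomatic 0.35, aligned them with STAR 2.5.1b to GRCm38 and deposited raw counts per gene in 1 table. Whether counting used strand is not given in the sources used here. Reads assigned to no gene, in 4 lines of the table, made up 24.7% to 30.9% of counts and were left out. Groups came from the labels, and each library has its own animal number. Nothing else says that samples are independent, so p-values measure the spread between these libraries.

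Counts were fitted with edgeR 4.0.16 in R 4.3.3 (filterByExpr, TMM, quasi-likelihood test), with Benjamini-Hochberg adjustment over all genes tested and a call at an adjusted p under 0.05. Standard errors were taken as the estimate over the square root of F. Intervals cover 95%. CPM were scaled by TMM over all libraries. Exon and transcript lengths came from a Gencode mouse annotation of the same build. The steps were tested on simulated data. Alternatives were DESeq2 1.42.0 size factors and likelihood ratio test, no filter, removal of a trend on length and GC content, and leaving out each library. For comparisons among infused mice, a block for runs of 4 animal numbers and choroid plexus markers as a covariate were also used. Pairs of infused groups were also fitted with all 15 libraries of 10 months in one fit. The genes named are the 10 members, the listed pathway genes called in any comparison, and the 3 genes most correlated with each member. Members and lists were chosen with earlier results of these data known.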

Additional observations from a re-analysis of the deposited data

Results flagged for a closer look

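Among the 50 sets of 4 libraries, 1 for each member and group of 4, 7 held a library whose gap to its nearest neighbour exceeded Dixon's 95% critical value of 0.829 of the range, and chance flags about 1 in 20 such sets. The library of 3xTg-D replicate 3 accounted for 3 of them, with the highest Apod (408.3 CPM, others 144 to 165 CPM), the highest Abca7 (26.3 CPM, others 13.7 to 15.4 CPM) and the lowest Fabp7 (14.1 CPM, others 27.9 to 30.7 CPM). In 3xTg-8M replicate 4 Lrp1 was the lowest of its group (272.1 CPM, others 382.8 to 405 CPM) and Fabp7 the highest (35.0 CPM, others 23.4 to 25.3 CPM). In WT-D replicate 1 Abca7 was the lowest (13.5 CPM, others 15.7 to 16.1 CPM) and Fabp7 the highest (32.3 CPM, others 22.7 to 23.5 CPM).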

How the results depend on the processing

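Of the alternatives of the members' fold changes, 1542 kept direction and side of the threshold, 18 gained the call, 4 lost it and 16 reversed; a change of sign within 1 standard error of 0 was not counted as a reversal. The cause of these changes was not tested. At 8 months, 1 member (Fabp7) was called with no filter, with the DESeq2 likelihood ratio test and with the length and GC trend removed, and 0 to 1 on leaving out each library (1 without 3xTg-8M replicate 4). Under vehicle 2 (Apod, Sorl1) were called with no filter. Between the strains under SCDi 1 (Apod) was called with no filter and 0 to 1 on leaving out each library (1 without WT-S replicate 2). In 3xTg-S against WT-D 2 (Apod, Sorl1) were called with no filter, with the likelihood ratio test and with the block, and 0 to 2 on leaving out each library. Over 10 months the strain term called 2 with no filter, 1 to 2 on leaving out each library (2 without WT-S replicate 2) and 3 with all 23 libraries, an alternative chosen after seeing the data.

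Reversed estimates were small. With choroid plexus markers as a covariate, Apoe under vehicle was -0.02, Abca7 under vehicle -0.01, Apod for SCDi in WT mice -0.01 and the Apod interaction of strain and treatment 0.01. With the length and GC trend removed, Apoe was -0.01 for SCDi in 3xTg mice, -0.01 for SCDi over 10 months and 0.01 for the interaction of strain and cohort, and Sorl1 was 0.01 for SCDi in 3xTg mice. On leaving out each library, Abca7 ranged from -0.05 to 0.30 under vehicle and from -0.02 to 0.17 for strain over 10 months, Apod from -0.03 to 0.50 for SCDi in WT mice and from -0.63 to 0.04 for the interaction of strain and treatment. Without both 3xTg-D replicate 3 and 3xTg-S replicate 2, chosen after seeing the data, SCDi in 3xTg mice gave 0.01 for Abcg1 and -0.01 for Fabp7 (ranges over left-out libraries -0.10 to 0.01 and -0.01 to 0.33), and strain over 10 months gave -0.01 for Abca7. Without 3xTg-D replicate 3 and with the trend removed, also chosen later, Abca7 under vehicle was -0.06.

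Over all genes, calls ranged from 227 to 854 at 8 months (399 in the report's fit), 85 to 792 under vehicle (216), 78 to 729 under SCDi (206), 155 to 1135 in 3xTg-S against WT-D (356) and 843 to 1851 for strain over 10 months (1062). They ranged from 0 to 112 for SCDi in 3xTg mice, 0 to 2 in WT mice, 0 to 94 over both, 0 to 8 for the interaction of strain and treatment and 10 to 33 for that of strain and cohort. The highest of each range came with no filter on low counts. Strain over 10 months was the exception, where it came with all 23 libraries in one fit. No paired analysis was possible because every library has its own animal number; the block for runs of 4 numbers stands in its place. Leaving out libraries was not run for the interaction of strain and cohort. Neither the block nor the choroid plexus covariate was run for that interaction or for the comparison at 8 months. Depth limits Abca7 most, with as few as 139 counts in a library, and counting error is only part of its spread.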
